A study of Mus musculus with 13 samples.

Results

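Cytochrome P450 enzymes are haem proteins that insert oxygen into steroids, bile acids, vitamins, fatty acids and foreign compounds. Most sit in the endoplasmic reticulum and take electrons from NADPH through P450 reductase and cytochrome b5, and a few sit in mitochondria and are served by ferredoxin. Liver is the richest source of the drug-metabolising families, and adipose tissue is known to express a smaller set of them. The genes described here are those whose symbol on the array is Cyp followed by a digit, apart from Cyp51. Of the 18820 genes measured, 87 met this rule, and all 87 were matched to RefSeq by their Entrez number. The rule goes by symbol and uses no measured change, though it was chosen with earlier results of these data known. A gene with several probe sets was represented by the one whose mean signal was highest.

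RNA was read on 13 Affymetrix arrays. The tissue was white fat from the epididymal depot, inside the abdomen, of male C57Bl/6 mice aged 18 weeks. There were 4 arrays of P2X7-/- mice fed a high-fat diet and 3 of P2X7-/- mice fed chow, then 3 of wild-type mice fed the high-fat diet and 3 of wild-type mice fed chow. The knockout carries the P2rx7tm1Gab allele, was backcrossed for 7 generations to B6 and lacks the gene in every cell. The diets held 60% and 13% of energy as fat and lasted 12 weeks. Whether an array stands for 1 animal is not said, so p-values measure the spread between these arrays, which may be technical. Values are log2 expression after RMA (robust multi-array averaging), and a change of 1 is 2-fold. In whole tissue, fewer cells of a type and less RNA per cell cannot be told apart.

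Most P450 genes gave a low signal in this fat. Averaged over the arrays, 16 of the 87 lay at or above the median gene and 71 below it, and 51 lay in the lowest 25% of genes. Signal over background was not used. Family 2, which oxidises drugs and fatty acids, held 45 of the genes without Cyp2r1, which is counted with the vitamin genes, family 4 (fatty acid hydroxylases) 15, family 3 and each of the sterol and vitamin groups 6, steroid hormone synthesis 5 and family 1 had 3. Cyp20a1 stood alone. The Cyp2c, Cyp2d, Cyp3a and Cyp4a subfamilies hold close copies. A further 9 P450 symbols were named only by probe sets shared between genes and were not counted, 9 of the 87 also appear on a shared probe set, and a probe set of such a subfamily may read a neighbour's RNA.

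The promoters below belong to the pair of genes that fell most and to a pair that rose on the high-fat diet in both genotypes. Each is the 250 bases before the gene start, 5′ to 3′ on the gene's strand, from RefSeq on GRCm38.p6. Capitals mark matches on either strand to TATAAA (the TATA box) and to CCAAT (the CCAAT box). They also mark GCGTG, the core bound by the aryl hydrocarbon receptor (AHR). The last motif is the nuclear receptor half-site, spelled AGGTCA, and none of the matches overlap. Cyp2e1 and Cyp2f2 lie at chr7:140763569-140763818 (+ strand) and chr7:27119705-27119954 (+ strand), Cyp1b1 at chr17:79715062-79715311 (- strand) and Cyp2r1 at chr7:114562973-114563222 (- strand).
Cyp2e1: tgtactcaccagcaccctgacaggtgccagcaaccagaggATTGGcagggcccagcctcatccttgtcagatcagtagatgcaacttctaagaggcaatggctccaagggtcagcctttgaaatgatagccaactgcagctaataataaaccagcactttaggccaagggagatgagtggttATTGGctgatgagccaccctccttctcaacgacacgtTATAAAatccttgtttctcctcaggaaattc
Cyp2f2: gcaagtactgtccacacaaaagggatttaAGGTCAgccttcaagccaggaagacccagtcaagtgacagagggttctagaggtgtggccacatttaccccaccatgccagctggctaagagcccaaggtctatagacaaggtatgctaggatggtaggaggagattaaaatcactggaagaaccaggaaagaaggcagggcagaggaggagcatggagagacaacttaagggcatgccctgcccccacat
Cyp1b1: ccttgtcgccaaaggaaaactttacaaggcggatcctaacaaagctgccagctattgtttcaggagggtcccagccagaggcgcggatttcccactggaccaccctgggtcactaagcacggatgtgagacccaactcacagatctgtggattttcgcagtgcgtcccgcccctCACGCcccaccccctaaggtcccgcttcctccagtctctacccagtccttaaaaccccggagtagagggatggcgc
Cyp2r1: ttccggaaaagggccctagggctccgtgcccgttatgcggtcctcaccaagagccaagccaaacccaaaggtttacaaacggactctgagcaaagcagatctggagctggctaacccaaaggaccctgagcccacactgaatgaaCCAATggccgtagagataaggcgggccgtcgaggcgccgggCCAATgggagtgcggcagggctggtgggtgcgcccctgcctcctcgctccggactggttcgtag

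Cyp2e1 held a TATA match starting at base -31 and CCAAT matches starting at -210 and -68. Cyp2f2 held 1 half-site, from -221, Cyp1b1 held 1 AHR core, from -76, and Cyp2r1 held CCAAT matches from -105 and -64. Of the 87 P450 genes 64 had a promoter in the table, and 37.5% of these held the TATA match, 42.2% the CCAAT match, 21.9% the AHR core and 21.9% the half-site. Over all 27025 promoters of the same length, 13.0% held the TATA match, 34.5% the CCAAT match, 28.2% the AHR core and 13.8% the half-site. A match is a run of letters and says nothing of whether a factor was bound.

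The high-fat diet changed a minority of P450 genes, and the changes were dominated by a steep fall of Cyp2e1 and Cyp2f2. In P2X7-/- mice 5 of the 87 rose and 11 fell (5.75% and 12.6%), beside 14.5% and 19.7% of all genes. In wild-type mice 2 rose and 11 fell (2.3% and 12.6%), beside 17.7% and 18.1% of all genes. A gene passed at a limma adjusted p under 0.05, adjusted over all 18820 genes. In each genotype the shares of risen and of fallen P450 genes lay below those of all genes. For fallen genes in wild-type mice this did not hold without the second wild-type high-fat array. In either direction 16 passed in P2X7-/- mice and 13 in wild-type mice, beside 34.2% and 35.8% of all genes. Counting genes whose diet groups did not overlap, 6 P450 genes lay above and 13 below in P2X7-/- mice, beside 17.5% and 25.6% of all genes, and 3 and 13 in wild-type mice, beside 20.8% and 22.5%. The median change was -0.05 over the 87 and -0.06 over all genes in P2X7-/- mice, and -0.07 and -0.03 in wild-type mice. In all, 20 P450 genes passed in at least 1 genotype, 8 of them in both with the same sign, and 67 passed in neither. Of the 16 P450 genes at or above the median level, 9 passed in P2X7-/- mice (3 rose, 6 fell) and 9 in wild-type mice (2 rose, 7 fell), against 7 and 4 of the 71 below it. Among all genes at or above that level, fitted alone, 2111 rose and 2829 fell in P2X7-/- mice, and 2643 rose and 2666 fell in wild-type mice. Calls were thus more frequent at that level over all genes too. At that level the called share of P450 genes, 9 of 16 in each genotype, was close to that of all genes. The shares of all genes given above are not matched for level, and most P450 genes are dim.

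**Figure D1:**
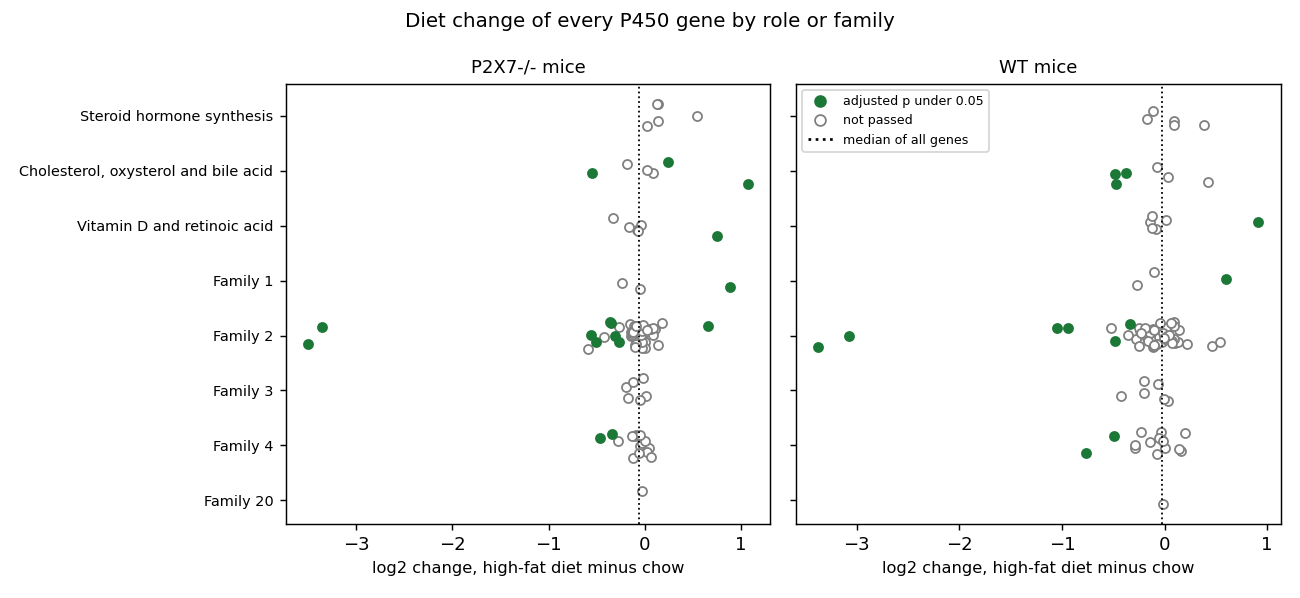
Log2 change of all 87 P450 genes with the high-fat diet (x axis, high-fat minus chow) in P2X7-/- mice (left) and wild-type mice (right), 1 point per gene, by role or family (y axis). Filled points passed at an adjusted p under 0.05 and the dotted line is the median of all genes; most points lie near it, and the far left pair in family 2 is Cyp2e1 and Cyp2f2.

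Cyp2e1 oxidises ethanol, acetone and fatty acids and is known as an abundant P450 of both liver and fat. Its log2 values were 10.03, 9.34, 8.85 and 8.95 in P2X7-/- mice on high-fat diet, against 12.77, 12.82 and 12.78 in P2X7-/- mice on chow. In wild-type mice they were 10.47, 10.845 and 8.03 on high-fat diet, against 12.75, 12.98 and 12.83 on chow. The chow arrays of both genotypes were nearly level, while the high-fat arrays spread widely, and the third wild-type one was the lowest of all 13. Cyp2e1 fell by 3.50 ± 0.50 (SE) in P2X7-/- mice, or 11.3-fold (limma adjusted p 0.000116), and by 3.07 ± 0.54 in wild-type mice, or 8.42-fold (adjusted p 0.000484). Only 1 of the 18820 genes fell further in P2X7-/- mice, where Cyp2e1 ranked 2, and in wild-type mice it ranked 5.

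Cyp2f2 is known in mice for activating naphthalene in airway club cells. It read 6.38, 6.18, 6.11 and 6.16 in P2X7-/- mice on high-fat diet, against 10.02, 9.91 and 8.76 on chow. In wild-type mice it read 5.97, 6.44 and 6.19 on high-fat diet, against 9.99, 8.94 and 9.80 on chow. Here the high-fat arrays lay close together and the chow arrays spread, with 1 lower array in each genotype. Cyp2f2 fell by 3.36 ± 0.29 in P2X7-/- mice (10.2-fold, limma adjusted p 1.45e-06) and by 3.38 ± 0.31 in wild-type mice (10.4-fold, adjusted p 1.78e-06). The difference between these changes was 0.02, with a 95% interval from -0.88 to 0.93. Both genes passed without any single array.

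**Figure D2:**
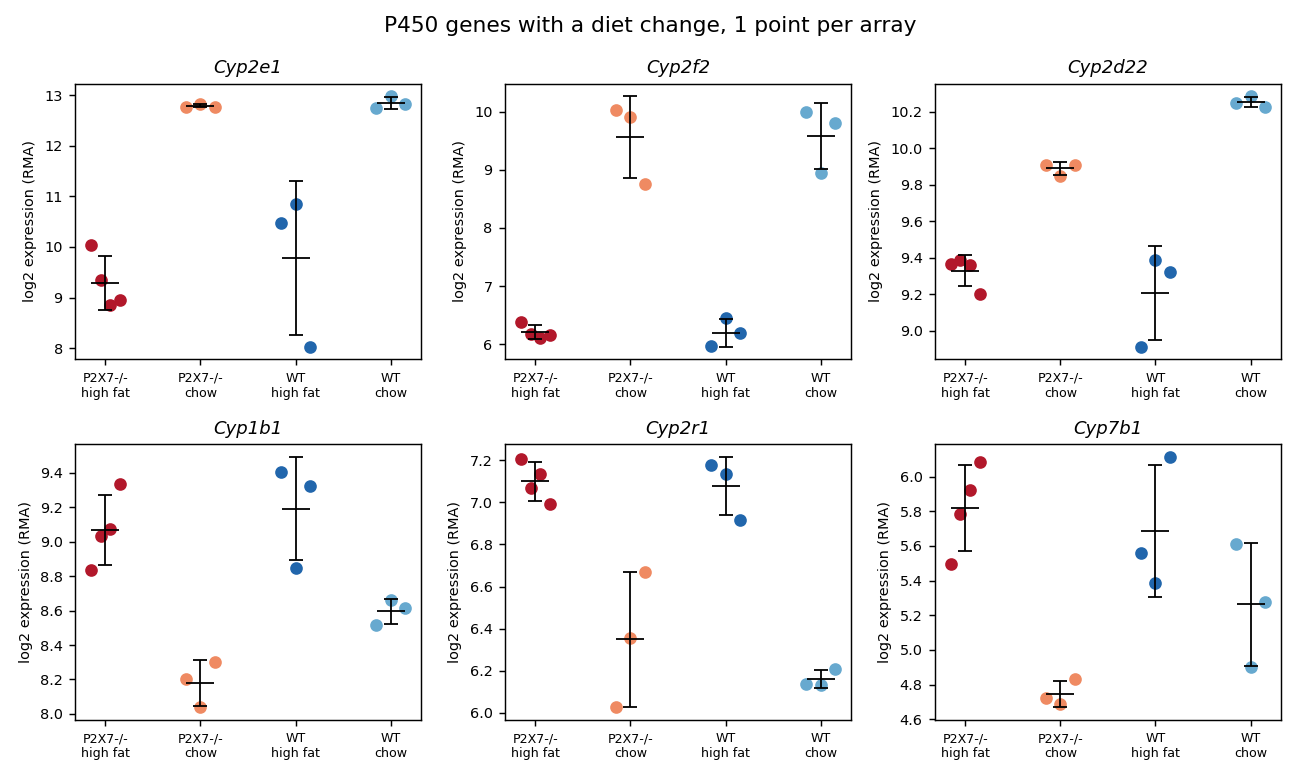
Log2 expression (y axis, a separate scale per panel) of 6 P450 genes in each array, by group (x axis), with the mean and SD of each group. For Cyp2e1, Cyp2f2 and Cyp2d22 every high-fat array lies below every chow array of its genotype, for Cyp1b1 and Cyp2r1 above it, and Cyp7b1 overlaps between the diets in wild-type mice.

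Other family 2 genes fell less. Cyp2d22, a Cyp2d enzyme read strongly in this fat, stood at 9.37, 9.39, 9.36 and 9.20 in P2X7-/- mice on high-fat diet, against 9.91, 9.85 and 9.91 on chow. In wild-type mice it stood at 8.91, 9.39 and 9.32 on high-fat diet, against 10.25, 10.28 and 10.23 on chow. The groups did not overlap between diets in either genotype, and Cyp2d22 fell by 0.56 ± 0.09 in P2X7-/- mice (limma adjusted p 0.000412) and by 1.04 ± 0.10 in wild-type mice (adjusted p 2.93e-06). The Cyp2j enzymes oxidise arachidonic acid and other polyunsaturated fatty acids. Cyp2j9 fell by 0.51 ± 0.12 in P2X7-/- mice and 0.94 ± 0.13 in wild-type mice, and Cyp2j6 fell by 0.31 ± 0.07 and 0.49 ± 0.08. Cyp2d22, Cyp2j9 and Cyp2j6 differed between the genotypes in the size of the fall by 0.49 ± 0.14, 0.44 ± 0.18 and 0.18 ± 0.10, and none passed as an interaction (limma adjusted p 0.350, 0.475 and 0.602).

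Cyp1b1, an AHR-responsive enzyme that oxidises oestrogens and polycyclic hydrocarbons, rose. Its values were 8.84, 9.03, 9.07 and 9.33 in P2X7-/- mice on high-fat diet, against 8.20, 8.04 and 8.30 on chow. In wild-type mice they were 9.41, 8.85 and 9.32 on high-fat diet, against 8.52, 8.66 and 8.61 on chow. Cyp1b1 rose by 0.89 ± 0.13 in P2X7-/- mice (limma adjusted p 0.000167) and by 0.60 ± 0.14 in wild-type mice (adjusted p 0.00468). A second, much dimmer Cyp1b1 probe set changed by 0.28 in P2X7-/- mice and by -0.10 in wild-type mice, and the wild-type call was lost when both were averaged (0.25 ± 0.10, adjusted p 0.0612). The other family 1 genes, Cyp1a1 and Cyp1a2, did not pass in either genotype.

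Among the 6 genes for vitamin D and retinoic acid, Cyp2r1 was the 1 that passed in either genotype. It encodes the vitamin D hydroxylase that makes calcidiol. Cyp2r1 read 7.21, 7.07, 7.14 and 6.99 in P2X7-/- mice on high-fat diet, against 6.03, 6.36 and 6.67 on chow, and 7.18, 7.14 and 6.92 in wild-type mice on high-fat diet, against 6.14, 6.13 and 6.21 on chow. It rose by 0.75 ± 0.12 in P2X7-/- mice (limma adjusted p 0.000376) and by 0.92 ± 0.13 in wild-type mice (adjusted p 0.000107). Of the retinoic acid hydroxylases, Cyp26b1 stood at -0.33 ± 0.15 in P2X7-/- mice (adjusted p 0.108) and did not pass, nor did Cyp26a1 and Cyp26c1. Cyp27b1 and Cyp24a1, which activate and inactivate vitamin D, did not pass either.

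The 6 sterol and bile acid genes moved in different ways. Cyp27a1, the mitochondrial sterol hydroxylase that makes an oxysterol in macrophages and many other cells, read 9.43, 9.41, 9.48 and 9.37 in P2X7-/- mice on high-fat diet, against 10.06, 9.82 and 10.04 on chow. In wild-type mice it read 9.39, 9.48 and 9.52 on high-fat diet, against 10.07, 9.64 and 10.12 on chow. The diets did not overlap in either genotype, and Cyp27a1 fell by 0.55 ± 0.10 in P2X7-/- mice (limma adjusted p 0.000844) and by 0.48 ± 0.11 in wild-type mice (adjusted p 0.00315). Cyp7b1, an oxysterol hydroxylase of the alternative bile acid route, rose in P2X7-/- mice. It read 5.50, 5.78, 5.92 and 6.08 there on high-fat diet, against 4.72, 4.69 and 4.83 on chow, a rise of 1.08 ± 0.19 (adjusted p 0.000669). In wild-type mice Cyp7b1 read 5.56, 5.38 and 6.11 on high-fat diet, against 5.61, 4.90 and 5.28 on chow, and did not pass (0.42 ± 0.20, adjusted p 0.131). The Cyp7b1 interaction was 0.65 ± 0.28 and did not pass (limma adjusted p 0.483), and without the first wild-type chow array Cyp7b1 also passed in wild-type mice. Cyp8b1 and Cyp46a1 did not pass in either genotype.

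**Figure D3:**
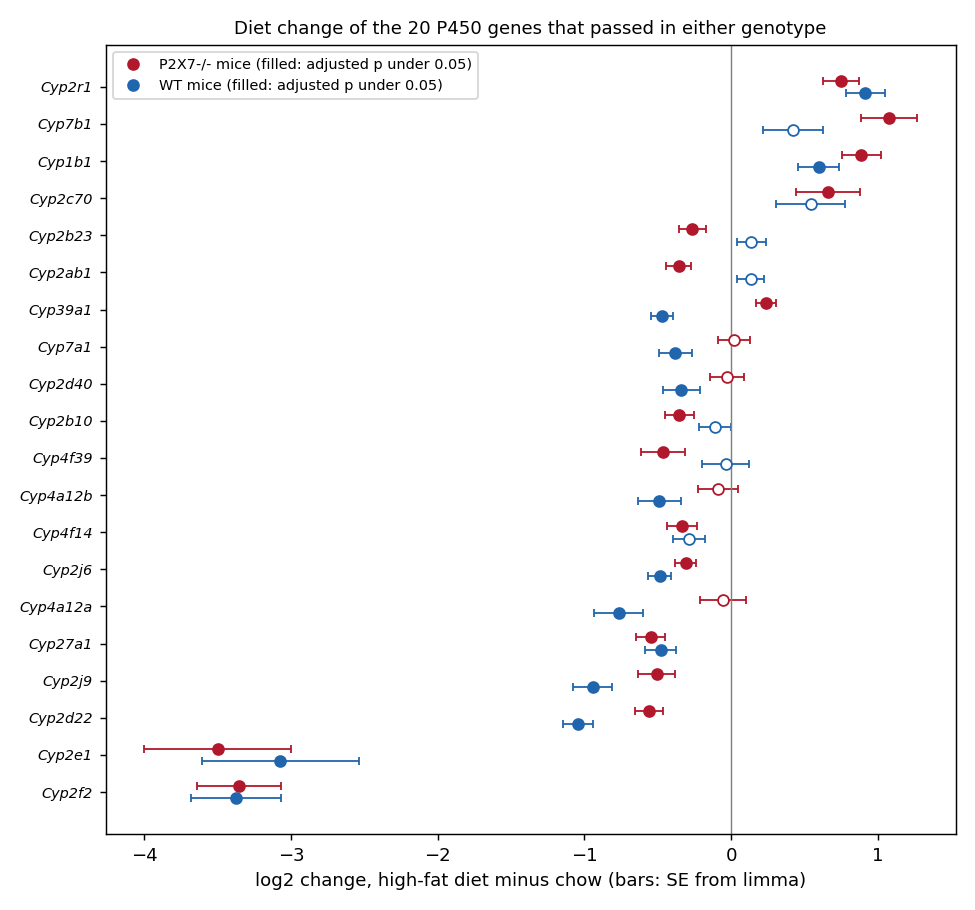
Log2 change with the high-fat diet (x axis, high-fat minus chow, bars give the SE from limma) of the 20 P450 genes that passed in either genotype (y axis), with P2X7-/- mice in red and wild-type mice in blue. Filled points passed at an adjusted p under 0.05; Cyp39a1 passed in opposite directions.

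Cyp39a1, an oxysterol hydroxylase of the endoplasmic reticulum, was the 1 P450 gene that passed in opposite directions. Its values were 7.07, 7.17, 7.09 and 7.10 in P2X7-/- mice on high-fat diet, against 6.92, 6.81 and 6.86 on chow. In wild-type mice they were 6.64, 6.73 and 6.83 on high-fat diet, against 7.29, 7.16 and 7.16 on chow. Cyp39a1 rose by 0.24 ± 0.07 in P2X7-/- mice (limma adjusted p 0.0157) and fell by 0.47 ± 0.07 in wild-type mice (adjusted p 0.000208), with no overlap between the diets in either. The interaction, 0.71 ± 0.10, had an unadjusted p of 8.88e-06 and an adjusted p of 0.0836, which did not pass. It passed without the second wild-type high-fat array (limma adjusted p 0.0202), a fit in which 21 genes passed as higher and 85 as lower over all genes. In the main fit 0 did. It also passed without the third (adjusted p 0.04997), where 3 and 1 of all genes passed. Without the intensity trend it passed too (adjusted p 0.0329), with 2 and 0 of all genes. The adjusted p was 0.242 with a liver marker mean as a covariate and 0.313 with the replicate number as a block. The rise in P2X7-/- mice did not pass without the second P2X7-/- chow array.

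Besides Cyp7b1, 6 P450 genes that lay below the median gene's level passed in P2X7-/- mice and not in wild-type mice. Cyp2c70, a bile acid hydroxylase of mouse liver, rose by 0.66 ± 0.22 (limma adjusted p 0.0312), and Cyp2ab1, Cyp2b10, Cyp2b23, Cyp4f14 and Cyp4f39 fell by 0.26 to 0.46. In wild-type mice Cyp2c70 stood at 0.54 ± 0.23 (adjusted p 0.0884) and Cyp4f14 at -0.29 ± 0.11 (adjusted p 0.0583). None of these genes passed as an interaction. Without the first wild-type high-fat array Cyp2c70 passed in wild-type mice too, and without the third Cyp4f14 did. Cyp2ab1 passed without every single array. Cyp2b10 did not pass without the third P2X7-/- chow array, and Cyp4f14 did not pass without the second array of either P2X7-/- group. Cyp4f39, an enzyme of skin lipid synthesis, did not pass without the second or the third chow array, or the second or the fourth high-fat array, of P2X7-/- mice. Cyp2c70 passed in 8 and Cyp2b23 in 5 of the 13 fits that left out 1 array.

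In wild-type mice Cyp4a12a, Cyp4a12b, Cyp7a1 and Cyp2d40 fell, and these low-signal genes are known best from liver or kidney. Cyp4a12a, a fatty acid hydroxylase of male mice, read 2.98, 2.94 and 2.79 on high-fat diet, against 4.16, 3.48 and 3.37 on chow, and fell by 0.77 ± 0.17 (limma adjusted p 0.00265). In P2X7-/- mice Cyp4a12a read 2.70 to 3.00 on high-fat diet and 2.75 to 3.14 on chow (-0.05 ± 0.16). Cyp7a1, the rate-limiting enzyme of bile acid synthesis, read 2.95, 2.97 and 3.04 in wild-type mice on high-fat diet, against 3.64, 3.24 and 3.22 on chow. It fell by 0.38 ± 0.11 (adjusted p 0.0184), and did not pass without the first wild-type array of either diet. Cyp4a12b fell by 0.49 ± 0.15 and passed in 9 of 13 fits that left out 1 array, and Cyp2d40 fell by 0.34 ± 0.12 and passed in 3.

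Liver markers also changed with the diet, chiefly in wild-type mice. Of 20 markers with no P450 among them, 19 were measured, and in wild-type mice 10 fell and 0 rose with the diet, while in P2X7-/- mice 2 fell and 1 rose. Their mean log2 value lay between 4.94 and 5.88 in P2X7-/- mice on high-fat diet, between 5.39 and 5.42 in P2X7-/- mice on chow, between 5.15 and 6.58 in the wild-type high-fat group, and between 6.42 and 7.27 in the wild-type chow group. Their summed linear level ran from 850 to 2293, 1264 to 1380, 1071 to 4159 and 3519 to 6489 in the same groups. No marker was at 0, since RMA gives every probe set a value. All 4 genes that fell in wild-type mice only were highest in the first wild-type chow array, which had the highest marker mean (7.27). Over the wild-type arrays Cyp4a12b followed the order of the marker mean, while Cyp4a12a, Cyp7a1 and Cyp2d40 did not follow it in every array. In the second wild-type high-fat array (mean 6.58) Cyp4a12a, Cyp7a1, Cyp2d40 and Cyp4a12b read 2.94, 2.97, 5.00 and 3.20. In the third wild-type chow array (mean 6.42) these genes read 3.37, 3.22, 5.32 and 3.10. Albumin (Alb) read 10.002, 8.87, 7.54 and 7.90 in P2X7-/- mice on high-fat diet, against 9.04, 9.27 and 9.26 on chow. In wild-type mice Alb read 9.37, 11.05 and 8.38 on high-fat diet, against 11.51, 10.93 and 10.80 on chow. Apoa1 and Ttr were likewise highest in the first wild-type chow array, at 8.999 and 7.86.

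**Figure D4:**
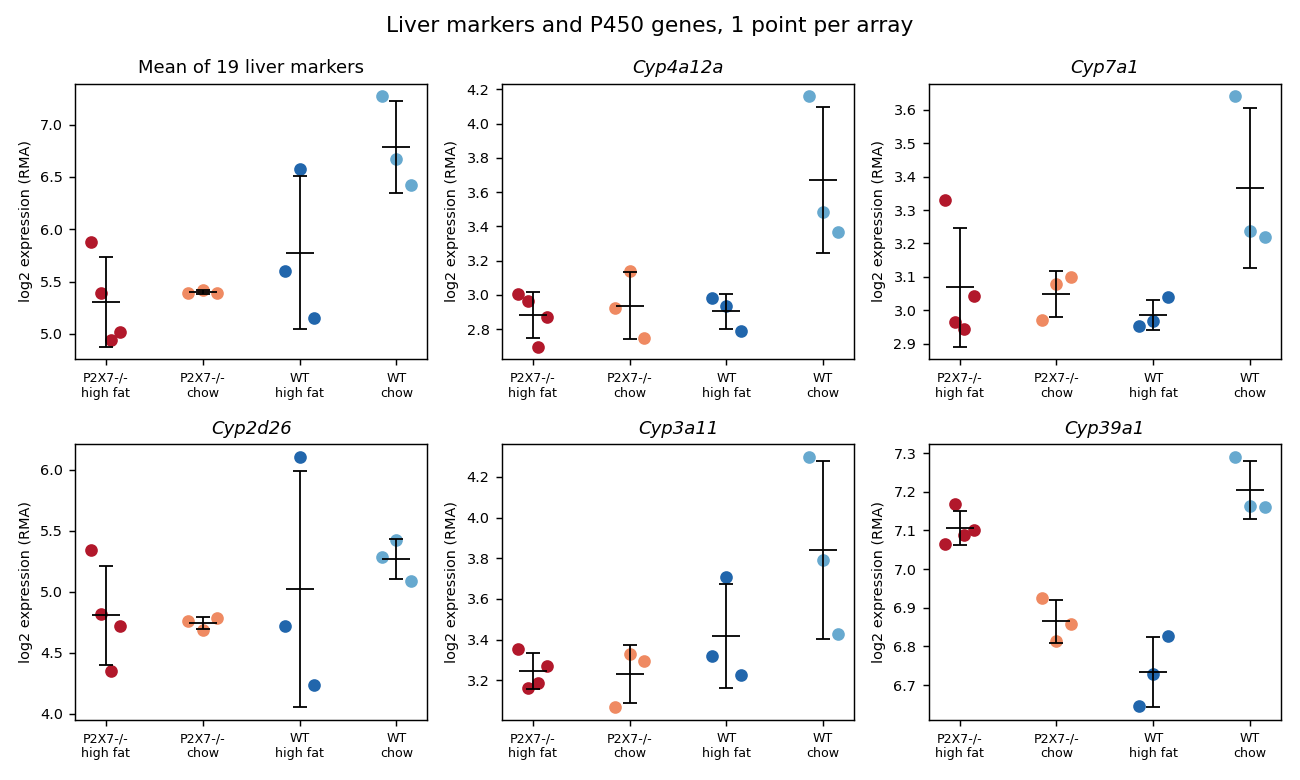
Mean log2 value of 19 liver markers and log2 expression of 5 P450 genes (y axes, a separate scale per panel) in each array, by group (x axis), with the mean and SD of each group. The first wild-type chow array is highest for the markers, Cyp4a12a, Cyp7a1 and Cyp3a11, and the second wild-type high-fat array is highest for Cyp2d26 and, within its group, for the markers.

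The first wild-type chow array, with the highest marker mean, held the highest value of 20 of the 87 P450 genes (23.0%), against 9.12% of all genes. The second wild-type high-fat array, highest in markers within its group, held that of 13 (14.9%), against 5.73% of all genes. These 13 included the liver P450 genes Cyp2c29, Cyp2c37, Cyp2c50, Cyp2c70, Cyp2d26 and Cyp3a25. Cyp2d26 read 4.72, 6.11 and 4.24 in wild-type mice on high-fat diet, against 5.29, 5.42 and 5.09 on chow. Without the second high-fat array 20 of the 87 P450 genes fell in wild-type mice, in place of 11, and Cyp4b1, Cyp3a11 and Cyp3a25 were then among them. Over all 18820 genes 3665 then fell, in place of 3409, so the fallen P450 share lay above that of all genes in that fit. With the marker mean as a covariate 7 of the 87 fell and 6 rose in wild-type mice, beside 2048 and 2267 of all 18820 genes. Without it 3409 fell and 3327 rose over all genes. With the covariate Cyp4a12a (-0.46 ± 0.19), Cyp4a12b (-0.19 ± 0.15), Cyp7a1 (-0.20 ± 0.14), Cyp2d40 (-0.20 ± 0.16) and Cyp1b1 (0.26 ± 0.13) did not pass (limma adjusted p 0.103, 0.445, 0.355, 0.438 and 0.182). Apart from Cyp2r1, the P450 genes that rose had no wild-type call without the covariate. They were Cyp2c70 (1.17 ± 0.16), Cyp2b9 (1.07 ± 0.23), Cyp2a12 (0.79 ± 0.22), Cyp2d26 (0.75 ± 0.24) and Cyp2c50 (0.60 ± 0.16). Cyp2d26 stood at -0.25 ± 0.36 without it. Why the covariate added and removed calls was not tested. In that fit Cyp2f2 fell by 3.08 ± 0.40 and Cyp2e1 by 1.83 ± 0.50 in wild-type mice (adjusted p 0.000134 and 0.0181), and by 3.33 ± 0.28 and 3.38 ± 0.35 in P2X7-/- mice. Diet and marker mean did not fully separate in wild-type mice, where the highest high-fat array lay above the lowest chow array.

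Markers of other cells also moved with the diet. Of 10 macrophage markers 9 rose and 1 fell in each genotype, with group means of 10.48 and 9.26 on high-fat diet and chow in P2X7-/- mice, and 10.56 and 9.08 in wild-type mice. Of 10 adipocyte markers 6 fell and 1 rose in P2X7-/- mice and 7 fell and 1 rose in wild-type mice (group means 10.56 on high-fat diet and 11.37 on chow in P2X7-/- mice, 10.46 and 11.32 in wild-type mice). All 8 mesothelial markers fell in both genotypes (group means 8.20 on high-fat diet and 9.22 on chow in P2X7-/- mice, 8.10 and 9.32 in wild-type mice). The third wild-type high-fat array, lowest in Cyp2e1, was also lowest in mesothelial markers (7.34). In the third P2X7-/- chow array these markers were low for its group (8.71, beside 9.53 and 9.43). Its Cyp2e1 was 12.78, beside 12.77 and 12.82. Of 10 blood vessel markers 4 fell and 1 rose in P2X7-/- mice and 8 fell in wild-type mice. Of 7 fibroblast markers 1 rose and 2 fell in each genotype, with group means between 9.86 and 9.97. The 11 testis and epididymis markers lay low, with group means between 3.95 and 4.08, and 2 fell in P2X7-/- mice and 1 rose in wild-type mice. The part of any of these cell types in the P450 changes was not tested.

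P450 genes read strongly and without a diet call included the family 4 enzymes Cyp4b1, Cyp4f13 and Cyp4f16, and Cyp20a1, whose substrate is not established. Cyp4f13 changed by 0.00 (95% interval -0.13 to 0.13) in P2X7-/- mice and by -0.02 (-0.16 to 0.12) in wild-type mice. Cyp20a1 changed by -0.03 (-0.16 to 0.11) in P2X7-/- mice and by -0.02 (-0.16 to 0.13) in wild-type mice. These intervals bound each change to a small fraction of 1 log2 unit. Cyp4f18, which inactivates leukotrienes in mouse neutrophils, stood at -0.28 ± 0.19 in P2X7-/- mice and 0.20 ± 0.21 in wild-type mice, and neither passed. Cyp2s1 varied more than most, with 8.23, 8.31, 7.88 and 7.93 in P2X7-/- mice on high-fat diet, against 9.01, 8.85 and 8.18 on chow (-0.59 ± 0.25, limma adjusted p 0.0888).

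Genes of steroid hormone synthesis gave no diet call in either genotype, with 0 of 5, and family 3 gave 0 of 6. Cyp11a1, the enzyme that starts steroid synthesis from cholesterol, read 4.62, 5.19, 5.16 and 5.05 in P2X7-/- mice on high-fat diet, against 4.27, 4.50 and 4.61 on chow. In wild-type mice Cyp11a1 read 4.56, 4.15 and 6.05 on high-fat diet, against 4.61, 4.42 and 4.57 on chow. The P2X7-/- groups did not overlap and 1 wild-type high-fat array stood well above the rest. The change was 0.54 ± 0.33 in P2X7-/- mice and 0.39 ± 0.35 in wild-type mice, with limma adjusted p-values of 0.227 and 0.437. Without the third wild-type high-fat array, Cyp11a1 and Cyp2s1 passed in P2X7-/- mice.

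Between P2X7-/- and wild-type mice no P450 gene passed on either diet. Whether the wild-type mice were littermates of the P2X7-/- mice is not said, so P2X7 loss and a difference between colonies cannot be told apart in any genotype comparison. On high-fat diet 0 of 87 passed, beside 0.0106% of all genes called higher and 0.0319% lower (0.0425% in all), and on chow 0 of 87 passed, beside 0.0478% and 0.085% (0.133% in all). Without the third wild-type chow array, Cyp4a12b passed as lower on chow. The interaction of diet and genotype called 0 P450 genes, beside 0% of all genes. At an unadjusted limma p under 0.05, 8 P450 genes differed on high-fat diet, 17 on chow and 9 in the interaction, and the smallest adjusted p was 0.117, 0.156 and 0.0836, in each case for Cyp39a1. Over all genes 7.41%, 9.62% and 9.72% had such a p. The median P450 difference was -0.05 on high-fat diet and -0.06 on chow, against -0.01 and 0.02 over all genes.

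On chow every P2X7-/- value of 20 P450 genes lay below every wild-type value, and of 4 genes above, beside 5.64% and 9.3% of all genes. In order of their p, the 20 were led by Cyp39a1 (-0.34 ± 0.07), Cyp4a12a (-0.73 ± 0.17), Cyp4a12b (-0.56 ± 0.15), Cyp2d22 (-0.36 ± 0.10), Cyp3a11 (-0.61 ± 0.18) and Cyp2j5 (-0.76 ± 0.25), with limma adjusted p of 0.156, 0.171, 0.241, 0.268, 0.276 and 0.333. They took in genes above the median gene's level, Cyp39a1, Cyp2d22, Cyp1b1 and Cyp4f13, and dim ones such as Cyp4a12a and Cyp3a11. The 19 liver markers had a median difference of -1.38 on chow, and 0 of them passed. With the marker mean as a covariate, Cyp39a1 stood at -0.34 ± 0.12, Cyp4a12a at -0.31 ± 0.22, Cyp4a12b at -0.16 ± 0.18 and Cyp2d22 at -0.24 ± 0.15 on chow. Cyp1b1 and Cyp7b1, also among the 20, stood at -0.88 ± 0.15 and -0.92 ± 0.29 with the covariate, against -0.42 ± 0.14 and -0.52 ± 0.20 without it. None of these passed. Marker mean and genotype cannot be told apart on chow, where the marker mean was 5.39 to 5.42 in P2X7-/- mice and 6.42 to 7.27 in wild-type mice. Without the covariate Cyp2e1 and Cyp2f2 differed on chow by -0.06 (95% interval -1.22 to 1.09) and -0.01 (-0.67 to 0.65). With it they differed by 1.64 ± 0.59 and 0.40 ± 0.47, and neither passed. On high-fat diet 6 P450 genes lay below and 2 above without overlap, beside 4.27% and 2.41% of all genes. P2rx7 lies on chromosome 5, as do 7 of the 87 P450 genes, Cyp2w1 and the 6 Cyp3a genes measured, and none of these passed for genotype.

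The partners of P450 enzymes changed in part. Of 7 electron carriers, haem synthesis and related genes, 1 rose and 2 fell in each genotype. Over all genes 14.5% rose and 19.7% fell in P2X7-/- mice, and 17.7% and 18.1% in wild-type mice. The same shares stand beside the marker lists above and the lists below. P450 reductase (Por), Fdx1l and Fdxr were listed but were not among the genes analysed. Ferredoxin (Fdx1), which serves mitochondrial P450s such as Cyp27a1 and Cyp11a1, read 6.09, 6.11, 6.22 and 6.04 in P2X7-/- mice on high-fat diet, against 7.37, 7.19 and 7.05 on chow. In wild-type mice Fdx1 read 5.89, 6.24 and 5.88 on high-fat diet, against 6.87, 7.28 and 7.07 on chow. Fdx1 fell by 1.09 ± 0.12 and by 1.07 ± 0.13 (limma adjusted p 1.07e-05 and 1.68e-05). Cytochrome b5 (Cyb5a) fell by 0.53 ± 0.05 in P2X7-/- mice and by 0.62 ± 0.05 in wild-type mice, and the reductase Cyb5r1 rose by 0.24 ± 0.06 and 0.42 ± 0.06.

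Of 13 regulators of P450 genes, 0 rose and 5 fell in P2X7-/- mice and 1 rose and 6 fell in wild-type mice. Arnt, the partner of AHR, fell by 0.33 ± 0.05 in P2X7-/- mice and by 0.44 ± 0.05 in wild-type mice. Ppara, which drives Cyp4a genes in liver, fell by 0.86 ± 0.18 and 1.12 ± 0.19, Rxra by 0.69 ± 0.09 and 0.61 ± 0.10, and the bile acid receptor Nr1h4 by 0.42 ± 0.08 and 0.66 ± 0.08. Of 7 epoxide and oxylipin genes, 1 rose and 3 fell in P2X7-/- mice and 2 rose and 3 fell in wild-type mice, with the epoxide hydrolase Ephx1 up by 0.49 ± 0.12 and 0.55 ± 0.13 and the lipoxygenase Alox15 at -1.39 ± 0.19 and -1.49 ± 0.21. A pair of P450 enzymes carry other symbols. Thromboxane synthase (Tbxas1), a macrophage and platelet enzyme, rose by 1.14 ± 0.18 in P2X7-/- mice and by 1.87 ± 0.19 in wild-type mice. Prostacyclin synthase (Ptgis) fell by 0.79 ± 0.14 and by 0.94 ± 0.15.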

How the data were processed

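Expression was measured on 13 arrays in 4 groups of diet and genotype taken from the sample titles. The deposited log2 values, 1 per probe set and array, had been made by the authors with RMA, per the submitters' processing notes, which name no version. The lowest of the 35556 probe sets' values was 1.70 and the highest 13.86, and array medians were 5.72 to 5.88. Across genes, r between arrays within a group was 0.993 to 0.997. Of the probe sets, 21218 named 1 gene, 1881 several and 12457 none in the platform's annotation, and only the first kind was used. All 18820 genes were fitted in 1 linear model with a mean per group (limma 3.58.1, R 4.3.3, intensity trend), with Benjamini-Hochberg adjustment over all genes of a contrast. Contrasts were diet in each genotype, genotype on each diet and the interaction. The number of arrays limits the precision. The fit was tested on simulated arrays. Figures used matplotlib 3.10.9.

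The members, the pathway and marker lists, the tests and most alternatives were chosen with earlier results of these data known. Of the genes on the pathway and marker lists, 10 were not analysed here. Any P450 gene could be named, and values in every array were given for those that passed with a change of at least 1, passed for genotype or interaction, or had the largest change in 1 genotype. Array values of other genes were chosen after they were seen. A planned mark for genes with a nearly identical protein was not made, as no protein sequences were used here. Replicate numbers were not used to pair the arrays in the main fit. Same-numbered arrays of different groups had deviations that correlated at r of -0.30 to 0.22, above 0.1 in 6 of 18 pairs. Differently numbered arrays gave r of -0.41 to 0.53, above 0.1 in 10 of 45 pairs. With so few arrays per group, these values cannot decide whether the numbers mark pairs. Alternatives changed the variance model, array weights, scaling, the filter on dim genes, the choice of probe set, which groups were fitted, the replicate block, the liver covariate and the minimum change, and left out arrays.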

Additional observations from a re-analysis of the deposited data

Results flagged for a closer look

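Cyp39a1 was picked out because every high-fat array lay above every chow array in P2X7-/- mice and below it in wild-type mice. Its interaction was 0.711, as described in the report, and did not pass over all genes (limma adjusted p 0.0836).

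In P2X7-/- mice on high-fat diet, 20 P450 genes that passed with diet were checked for an array far from the other 3, and 2 had one; chance gives about 1 in 20. The lowest Cyp2d22 value (9.20, beside 9.36 to 9.39) was separated by 0.86 of the group's range, and the highest Cyp2d40 value (5.28, beside 4.92 to 4.97) by 0.864 of it.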

How the results depend on the processing

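None of the 29 diet calls on P450 genes changed direction under any alternative run. With a minimum change of 1, 1 gene rose and 2 fell in P2X7-/- mice and 0 rose and 3 fell in wild-type mice. Among genes at or above the median level, which leaves 16 P450 genes to test, 3 rose and 6 fell in P2X7-/- mice (median -0.20), and 7 fell in wild-type mice (median -0.25). With all probe sets of a gene averaged, 1 rose in wild-type mice. With the liver marker mean as covariate, 6 rose and 7 fell in wild-type mice and 8 of the 13 genes called without it were called again; the medians were 0.031 for diet in wild-type mice, 0.058 for genotype on chow and -0.10 for the interaction. Without the intensity trend 1 gene passed in the interaction. The first wild-type chow and second wild-type high-fat arrays were also left out together, a choice made after seeing the data. Then 1 P450 gene passed as higher in P2X7-/- mice on high-fat diet and 1 in the interaction (median 0.079), each Cyp39a1. Over all genes 81 then passed as higher and 139 as lower in P2X7-/- mice on high-fat diet, and 9 and 50 in the interaction. Apart from the smaller set of genes and arrays, the cause was not tested. The replicate block left 5 risen and 8 fallen genes in P2X7-/- mice and 2 and 11 in wild-type mice; the fourth P2X7-/- high-fat array has no partner and adds nothing to that fit.

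Leaving out 1 array at a time gave 4 to 6 risen and 8 to 11 fallen genes in P2X7-/- mice (median -0.10 to -0.05) and 2 to 3 risen and 8 to 20 fallen in wild-type mice (median -0.12 to -0.04), with 20 fallen without the second wild-type high-fat array. It gave 0 higher genes in P2X7-/- mice on either diet, 0 to 1 lower on chow (median -0.07 to -0.04) and 0 lower on high-fat diet (median -0.08 to -0.01). The interaction gave 0 to 1 higher and 0 lower (median -0.03 to 0.07). Over all genes, centring the arrays moved the wild-type diet calls to 2874 higher and 4352 lower, against 3327 and 3409. Signal over background is unknown for the 71 dim P450 genes.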
